A study of Mus musculus with 5 samples.

Results

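Latent TGF-beta binding and activation genes were compared between wild-type and Mkl2-/- mouse embryonic stem cells. The set consists of 8 genes: Furin, the latent TGF-beta binding protein genes Ltbp1, Ltbp2, Ltbp3 and Ltbp4, the fibrillin genes Fbn1 and Fbn2, and the thrombospondin gene Thbs1. A gene counted as measured where the platform annotation gave an array feature that symbol and no other. This held for 7 of the 8, each with 1 feature, among 19938 genes measured in all; Fbn1 was not analysed here. Undifferentiated cells of strain C57BL/6 gave 2 wild-type and 3 Mkl2-/- arrays, each from its own culture. All cultures had serum, leukaemia inhibitory factor (LIF) and a layer of feeder fibroblasts over gelatin, and the feeders were left behind on a dish before lysis. Mkl2, now named Mrtfb, encodes a myocardin-related transcription factor that works with serum response factor (SRF), and the series asks how its loss bears on TGF-beta signalling. The sources used here do not describe the allele or its deleted part, nor the number of cell lines per genotype.

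TGF-beta is made as a precursor that convertases such as furin cut into the mature growth factor and a propeptide. The propeptide stays wrapped around the growth factor and keeps it latent, and in the secretory pathway it is joined by disulphide bonds to a latent TGF-beta binding protein (LTBP). The LTBP then anchors the complex to fibrillin microfibrils and fibronectin in the matrix, where integrins, thrombospondin-1 and proteases can release the growth factor. Embryonic stem cells make and respond to several members of the wider TGF-beta family, Nodal among them, whose precursors are also cut by convertases of the furin type.

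Thbs1 and Furin fell in Mkl2-/- cells, and the Ltbp genes had differences of both signs, none past the test. Thbs1 fell 1.38-fold (limma adjusted p = 0.015) and Furin 1.19-fold (limma adjusted p = 0.049). Both calls were lost when any single Mkl2-/- array was left out. Ltbp1 was 1.27-fold lower and Ltbp4 1.32-fold higher, each on all 3 Mkl2-/- arrays. Neither passed the test (limma adjusted p = 0.095 and 0.060), so Furin and Ltbp4 lay close to the threshold on either side of it. Ltbp2, Ltbp3 and Fbn2 differed by less than 0.2 on the log2 scale and did not pass. Thus 2 of the 7 genes had a limma p under 0.05 after Benjamini-Hochberg adjustment over all 19938 genes, both of them lower. Of all genes, 9.27% passed in either direction, 6.28% as lower and 2.99% as higher. Of the 13564 genes with a mean above the background level of 7.30, as 6 of the 7 have, 12.9% passed. The arrays of both groups did not overlap in 5 of the 7 genes, 4 lower and 1 higher. Over all genes this share was 33.6% in either direction, 16.7% lower and 16.9% higher. Of the 13564 genes above background, 5826 did not overlap, 3077 lower and 2749 higher. The 7 differences ran from -0.46 to 0.40 with a median of -0.14, and the median over all genes was 0.02. Values are log2 intensities as deposited, differences are given as Mkl2-/- minus wild type, and levels of different genes are not compared because each feature has its own probes. With 5 arrays the precision is limited by their number, and p-values rest on the spread of the deposited values between cultures. Of all genes, 766 had the same deposited value on all 5 arrays. The spread of the deposited values, and so the SE, may thus understate the variation between cultures.

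**Figure D1:**
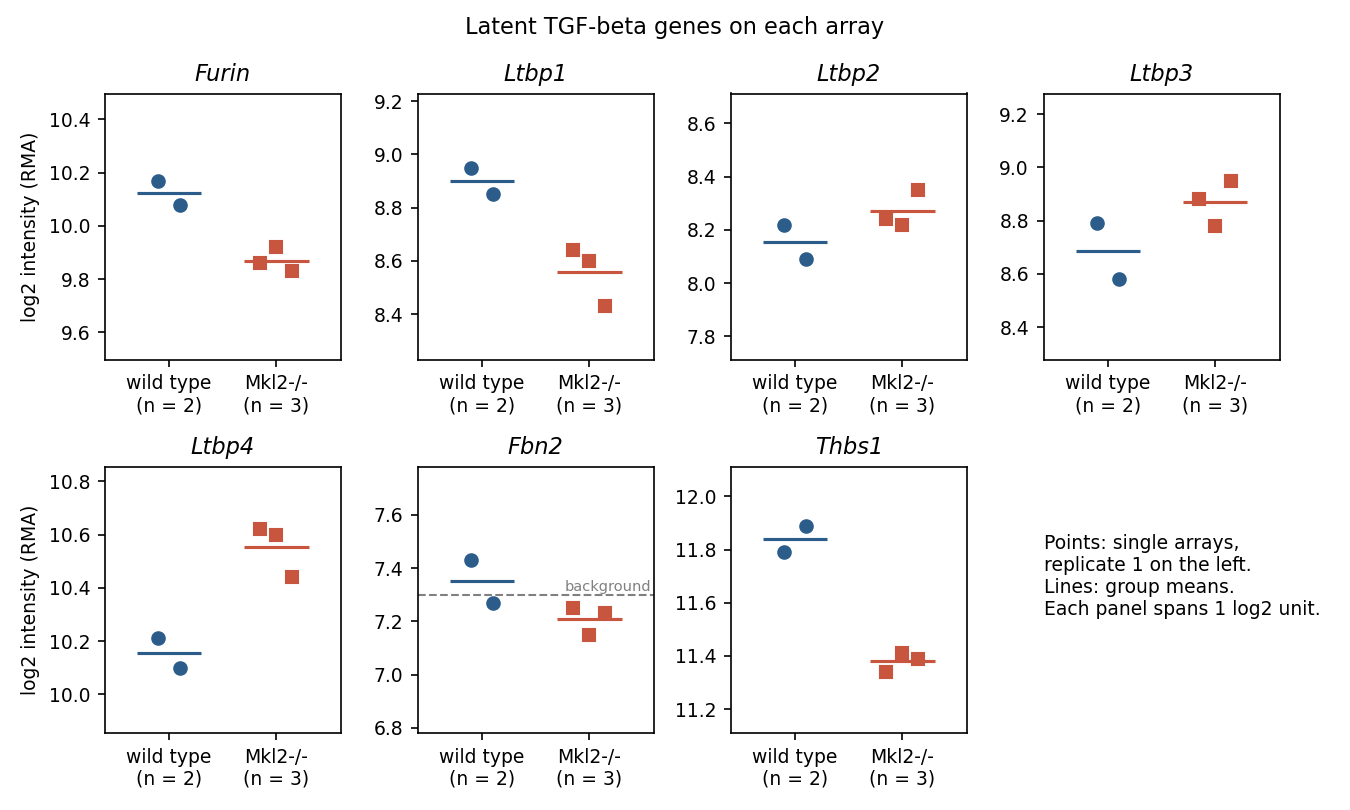
Log2 intensity of the 7 measured genes on each array, with wild-type arrays (n = 2) as blue circles, Mkl2-/- arrays (n = 3) as red squares and group means as lines; every panel spans 1 log2 unit, so distances can be compared between panels. Thbs1, Furin and Ltbp1 lie lower on all Mkl2-/- arrays and Ltbp4 higher, while the groups overlap in Ltbp2 and Ltbp3 and Fbn2 lies around the background level of 7.30.

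Across the whole series 1848 genes passed, 596 higher and 1252 lower; higher genes made up 32.3% of these calls, and 45.9% of 3234 calls when the deposited values were quantile-normalized once more. The targeted transcript, Mkl2 (Mrtfb in the annotation), has 3 features, of which only the brightest is reported here. It read 9.75 to 9.80 in wild type and 9.09 to 9.32 in Mkl2-/- (-0.53 ± 0.09, SE, limma adjusted p = 0.048). The sources used here do not say whether this feature lies in the deleted part. The relatives of Mkl2, Mkl1 (0.01) and Myocd (0.10, below background on all arrays), and their partner Srf (-0.16, limma adjusted p = 0.0997) did not pass. The stem cell markers Pou5f1, Sox2, Nanog, Zfp42, Esrrb, Utf1, Tdgf1 and Dppa5a were all above background on every array, with Nanog lower, Utf1 and Dppa5a higher and the other 5 not past the test. Of 24 markers of fibroblasts, the feeder cells, 2 fell, 2 rose and 20 did not pass. Thus 16.7% were called, beside 9.27% of all genes and 12.9% of genes above background. The mean log2 level of the 24 markers was 7.72 to 7.74 in wild type and 7.65 to 7.70 in Mkl2-/-. The 10 defining markers among them averaged 7.84 on both wild-type arrays and 7.69 to 7.75 on the Mkl2-/- arrays, so they were lower in Mkl2-/- with no overlap. The markers that fell were Igfbp4 (-0.99, limma adjusted p = 0.0079) and the defining marker Pdgfrb (-0.28, limma adjusted p = 0.035), and those that rose were Pdgfra (0.75, limma adjusted p = 0.0154) and Twist1 (0.31, limma adjusted p = 0.0182). Of the defining markers, Lum and Postn lay below background on every array, and Col1a1 (-0.29), Col1a2 (-0.08) and Col3a1 (0.05) did not pass. Apart from the 3 collagen genes, these markers were named after their values were seen. Fibroblasts also express matrix genes such as those described here. With the marker mean as a covariate, the differences were -0.52 for Thbs1, -0.30 for Furin, -0.37 for Ltbp1 and 0.37 for Ltbp4. In the same fit Fbn2 moved from -0.14 to -0.03, Ltbp3 from 0.185 to 0.34 and Ltbp2 from 0.115 to 0.20, each by more than 1.5 times. No gene on the array passed in that fit, which has 2 residual degrees of freedom. In RNA from whole cultures, fewer cells of a type and less RNA per cell cannot be told apart.

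The growth factor precursor is cut by furin, a membrane-bound protease of the Golgi that cleaves after basic residues and also processes many other precursors. Furin read 10.17 and 10.08 on the wild-type arrays against 9.86, 9.92 and 9.83 on the Mkl2-/- arrays. All 3 Mkl2-/- arrays were lower than both wild-type arrays, with a gap of 0.16 between the groups and a range of 0.09 within each. The difference was -0.255 ± 0.04 (SE, n = 2 and 3; 95% confidence interval -0.38 to -0.13; limma adjusted p = 0.049). This call stood at the threshold. It was lost with any single array left out (adjusted p from 0.103 to 0.179, differences from -0.30 to -0.21), and it was just missed when all features with 1 symbol were tested together (limma adjusted p = 0.0502). The 24 expressed neighbours of Furin on chromosome 7 had a median difference of 0.04, and 1 of them passed the test.

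The RefSeq promoter windows, which hold 250 bases before and 50 after a transcript start in build GRCm38.p6, covered 6 of the 8 genes with 10 starts. Fbn2 and Thbs1 had no entry. The windows were searched on both strands for the CArG box, the site bound by SRF, for CAGAC, a site bound by SMAD proteins, which carry the TGF-beta signal, for TGACTCA, a site bound by Fos and Jun proteins, and for GGGCGG, a site bound by Sp1. The CArG box was in 0 of the 10 windows and in 1.63% of all 32851 windows. CAGAC was in 6 of the 10 windows, of Furin, Ltbp1, Ltbp2 and Ltbp3, and in 49.6% of all windows. GGGCGG was in 6 of the 10, of Fbn1, Furin, Ltbp2 and Ltbp4, and in 35.7% of all. TGACTCA was in 1 of the 10, of Ltbp3, and in 5.20% of all, and 1 pair of matches to different motifs overlapped in the 10 windows. A match is a description of the letters and not a measured site. The stretches before the outermost start of Furin, which fell, of Ltbp1, the Ltbp gene with the lowest difference, and of Ltbp3, which did not pass and overlapped between the groups, are printed from 5′ to 3′ on the gene's strand. Capitals mark CAGAC or its reverse complement, the only motif of the 4 found whole in these stretches. The TGACTCA match of Ltbp3 and the GGGCGG matches of Furin lie partly or wholly outside the printed stretches. Furin lies at chr7:80405442-80405686 on the minus strand, Ltbp1 at chr17:75005279-75005479 on the plus strand and Ltbp3 at chr19:5740650-5740899 on the plus strand.
Furin: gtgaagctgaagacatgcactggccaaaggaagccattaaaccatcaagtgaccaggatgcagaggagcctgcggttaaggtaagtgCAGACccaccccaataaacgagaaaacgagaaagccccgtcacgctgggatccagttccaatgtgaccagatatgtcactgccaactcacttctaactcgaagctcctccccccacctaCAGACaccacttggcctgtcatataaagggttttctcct
Ltbp1: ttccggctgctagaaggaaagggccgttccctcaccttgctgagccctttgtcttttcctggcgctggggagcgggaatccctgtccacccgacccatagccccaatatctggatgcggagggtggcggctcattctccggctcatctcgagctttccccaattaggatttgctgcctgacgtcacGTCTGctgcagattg
Ltbp3: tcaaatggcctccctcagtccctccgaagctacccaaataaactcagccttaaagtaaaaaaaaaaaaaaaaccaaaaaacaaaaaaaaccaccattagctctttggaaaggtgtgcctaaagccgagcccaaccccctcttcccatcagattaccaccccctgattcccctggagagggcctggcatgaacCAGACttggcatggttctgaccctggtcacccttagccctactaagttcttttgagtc
The Furin stretch holds 2 such matches in 245 bases, Ltbp1 holds 1 in 201 bases and Ltbp3 holds 1 in 250 bases.

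Among the carrier proteins, Ltbp1 and Ltbp4 had the largest differences and opposite signs. Ltbp1 encodes an LTBP that binds the propeptides of all TGF-beta isoforms. It read 8.95 and 8.85 on the wild-type arrays against 8.64, 8.60 and 8.43 on the Mkl2-/- arrays. The Mkl2-/- arrays all lay lower, with replicate 3 lowest and a gap of 0.21 between the groups. The difference was -0.34 ± 0.08 (SE, n = 2 and 3; 95% confidence interval -0.57 to -0.12) and did not pass (limma adjusted p = 0.095). Ltbp4, whose product binds latent TGF-beta of the Tgfb1 isoform and takes part in elastic fibre assembly, read 10.21 and 10.10 on the wild-type arrays against 10.62, 10.60 and 10.44 on the Mkl2-/- arrays. The Mkl2-/- arrays all lay higher, again with replicate 3 lowest, and the gap was 0.23. The difference was 0.40 ± 0.07 (SE, n = 2 and 3; 95% confidence interval 0.19 to 0.61) and did not pass (limma adjusted p = 0.060). After quantile normalization both passed, Ltbp1 lower at -0.31 (limma adjusted p = 0.032) and Ltbp4 higher at 0.44 (limma adjusted p = 0.0068). Ltbp4 also passed among genes above background (limma adjusted p = 0.037) and with array weights (limma adjusted p = 0.043).

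Within each array the difference between the Ltbp4 and Ltbp1 features was steadier than either value. The absolute size of this difference has no meaning, since the features have different probes, and it was looked at after the values were seen. Ltbp4 minus Ltbp1 was 1.26 and 1.25 on the wild-type arrays and 1.98, 2.00 and 2.01 on the Mkl2-/- arrays. The group means were 1.26 ± 0.01 (SD, n = 2) and 2.00 ± 0.02 (SD, n = 3), which differ by 0.74. The pair was chosen for its opposite differences, so this gap follows from the values of both genes. The gap and the steadiness are given as a description, with no test and no comparison with other pairs of genes.

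Ltbp3 and Ltbp2 read slightly higher in Mkl2-/- with overlapping arrays. Ltbp3, whose product binds latent TGF-beta and is known from tooth and bone development, read 8.79 and 8.58 on the wild-type arrays against 8.88, 8.78 and 8.95 on the Mkl2-/- arrays. Mkl2-/- replicate 2 lay just under wild-type replicate 1, and the difference of 0.185 ± 0.09 (SE, n = 2 and 3; 95% confidence interval -0.07 to 0.44) did not pass (limma adjusted p = 0.344). Ltbp2 encodes the family member that does not bind latent TGF-beta and sits on microfibrils. It read 8.22 and 8.09 on the wild-type arrays against 8.24, 8.22 and 8.35 on the Mkl2-/- arrays, where the lowest Mkl2-/- array equalled the higher wild-type array. Its difference was 0.115 ± 0.06 (SE, n = 2 and 3; 95% confidence interval -0.06 to 0.29; limma adjusted p = 0.387). The intervals of both genes hold 0, and that of Ltbp3 also reaches past the difference measured for Ltbp4, so a change of that size is not excluded for Ltbp3.

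Fibrillins form the microfibrils to which LTBPs attach, and fibrillin-2 is known mainly from embryonic tissues. Fbn2 read 7.43 and 7.27 on the wild-type arrays against 7.25, 7.15 and 7.23 on the Mkl2-/- arrays. Wild-type replicate 1 was the only array above the background level of 7.30, which is the 95th percentile of 1027 olfactory receptor genes, so no fold is given. The groups were separated by 0.02, and the difference of -0.14 ± 0.06 (SE, n = 2 and 3; limma adjusted p = 0.324) did not pass.

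Thrombospondin-1 is a secreted matrix protein that binds the propeptide and can activate latent TGF-beta, and its gene is induced by serum. Thbs1 read 11.79 and 11.89 on the wild-type arrays against 11.34, 11.41 and 11.39 on the Mkl2-/- arrays. The 3 Mkl2-/- arrays lay within 0.07 of each other and 0.38 below the lower wild-type array, the widest gap of the 7 genes. The difference was -0.46 ± 0.04 (SE, n = 2 and 3; 95% confidence interval -0.58 to -0.34; limma adjusted p = 0.015). By absolute difference Thbs1 lay above 95.5% of all genes, and by p it ranked at position 584. Leaving out wild-type replicate 1 kept the call (-0.51, limma adjusted p = 0.0457). Leaving out wild-type replicate 2 or Mkl2-/- replicate 1, 2 or 3 lost it (adjusted p from 0.0698 to 0.0782), with differences between -0.47 and -0.41. The 24 expressed neighbours of Thbs1 on chromosome 2 had a median difference of -0.002, and 3 of them passed.

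**Figure D2:**
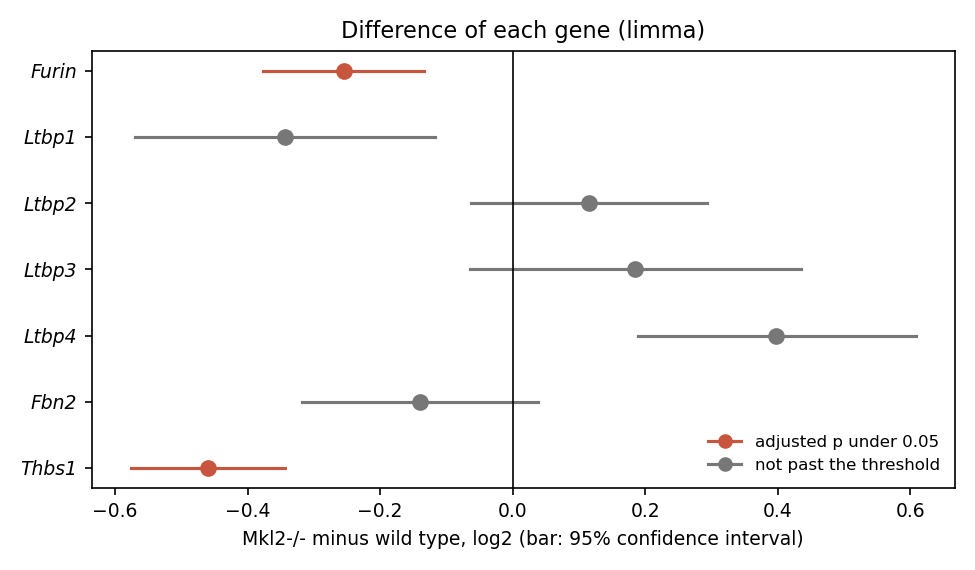
Mkl2-/- minus wild type on the log2 scale for each of the 7 genes (points) with the 95% confidence interval of the limma fit (bars); red marks the genes past an adjusted p of 0.05. Thbs1 (-0.46) and Furin (-0.255) lie below 0 and passed, the intervals of Ltbp1 (-0.57 to -0.12) and Ltbp4 (0.19 to 0.61) also leave out 0 but did not pass after adjustment, and those of Ltbp2, Ltbp3 and Fbn2 hold 0.

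The neighbours of the other genes on their chromosomes had medians near 0. Medians over 24 expressed neighbours were -0.03 for Ltbp1 on chromosome 17, 0.02 for Ltbp2 on chromosome 12, 0.06 for Ltbp3 on chromosome 19, 0.02 for Ltbp4 on chromosome 7 and 0.045 for Fbn2 on chromosome 18, with 2 to 5 neighbours past the test. The wild-type arrays themselves differed in the same direction in most of the set. Wild-type replicate 1 was above replicate 2 in 6 of the 7 genes, by 0.09 (Furin) to 0.21 (Ltbp3), while Thbs1 was lower by 0.10 in replicate 1. The SD of this difference over all genes was 0.098 and its median 0.00.

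The genes whose array profiles lay closest to those of the called genes were taken by the Euclidean distance between values centred on each gene's mean over the 5 arrays, among expressed genes. For Thbs1 these were Rab3b (distance 0.026, difference -0.465), which encodes a small GTPase, Zfp36 (0.030, -0.44), which encodes the mRNA-destabilizing protein tristetraprolin, and Maged2 (0.033, -0.48). For Furin they were Morrbid (0.033, -0.23), a long noncoding RNA, Lats2 (0.040, -0.23), a kinase of the Hippo pathway, and Rcor1 (0.040, -0.27), a corepressor gene. These genes were picked for profiles like those of Thbs1 and Furin on the same arrays, so similar differences and p-values follow from the choice. The 3 genes nearest Thbs1 had limma adjusted p from 0.0179 to 0.0221. Of those nearest Furin only Rcor1 passed (limma adjusted p = 0.0456). Shared regulation was not tested.

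Of 50 other measured genes of latent TGF-beta production, storage and release, 12 fell, none rose and 38 did not pass. That is 24.0% called, against 9.27% of all genes in either direction and 6.28% lower. Of the 50, 43 are above background, and 12.9% of all genes above background were called. The lists were chosen with earlier results of these data known. The median difference of the 50 was -0.045, against 0.02 over all genes. No overlap between the groups was seen in 25 of the 50 (21 lower, 4 higher). Over all genes this share was 33.6% (16.7% lower, 16.9% higher). Of the 13564 genes above background, 5826 had no overlap (3077 lower, 2749 higher). Only 2 of the 50 are on the fibroblast list used here. Neither was called, so setting them aside could not change the count. When the genes of chromosome 1 were set aside, 10 of 47 were called, a choice made after seeing the data. Fibroblasts also express Fn1 and Mmp2, which are among the 12, so the list does not cover all genes of these cells. Whether feeder cells contribute to the 12 differences was not tested with it. Without single arrays the count fell to between 0 and 8; it was 0 without wild-type replicate 2, 6 without wild-type replicate 1, and 4, 5 and 8 without Mkl2-/- replicates 1, 2 and 3.

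The ligand genes, which encode the cargo of the latent complexes, held some of the largest differences. Among 5 ligand and cell surface carrier genes, Tgfb2 and Tgfb1 fell and 3 genes did not pass. For comparison, 9.27% of all genes were called in either direction and 6.28% as lower. The share called among genes above background was 12.9%. Tgfb2 read 9.52 and 9.69 on the wild-type arrays against 7.82, 7.77 and 7.99 on the Mkl2-/- arrays. The difference was -1.745 ± 0.09 (SE, n = 2 and 3, limma adjusted p = 0.0079). The median difference over the 758 expressed genes of its chromosome, chromosome 1, was -0.165. The other chromosomes apart from Y had medians from -0.05 (X) to 0.04 (chromosome 7). How far this shift of chromosome 1 enters the differences of its genes was not tested. Tgfb1 read 9.78 and 9.82 on the wild-type arrays against 9.20, 9.21 and 9.15 on the Mkl2-/- arrays (-0.61 ± 0.03, SE; limma adjusted p = 0.0064). Neither gene showed overlapping groups. Tgfb3 was above background on the wild-type arrays only and did not pass (-0.25, limma adjusted p = 0.082), and Lrrc32, which encodes the cell surface carrier GARP, differed by -0.08.

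Of 16 listed genes for integrins, proteases and other proteins that release TGF-beta or are related to such proteins, 6 fell and none rose. They were the integrin subunit genes Itgb1 (-0.205 ± 0.01), Itgb8 (-0.42 ± 0.04) and Itgb5 (-0.72 ± 0.08), the gelatinase genes Mmp2 (-0.26 ± 0.02) and Mmp9 (-0.30 ± 0.03), and Bmp1 (-0.35 ± 0.04), whose protease cuts LTBP1 (each SE, n = 2 and 3). Their limma adjusted p-values ran from 0.0082 to 0.0241. These 6 are 37.5% of the list. Among all genes 9.27% were called (6.28% lower), and among genes above background 12.9%. Itgb5 and Bmp1 were named after their values were seen. Itgb8 encodes the partner of the alpha-v subunit in an integrin that activates latent TGF-beta. It read 8.81 and 8.93 on the wild-type arrays against 8.47, 8.44 and 8.43 on the Mkl2-/- arrays, without overlap. Itgav, the gene for that alpha-v subunit, read 10.42 and 10.52 on the wild-type arrays against 10.46, 10.46 and 10.47 on the Mkl2-/- arrays. Its groups overlapped, and its difference did not pass (limma adjusted p = 0.924). Itgb6 lay below background on every array. Thbs2, the closest relative of Thbs1 in the list, read 7.72 on both wild-type arrays and 7.70 to 7.72 in Mkl2-/-, a difference of -0.01 (95% confidence interval -0.04 to 0.03). Itgav, Itgb6 and Thbs2 were also named after their values were seen.

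**Figure D3:**
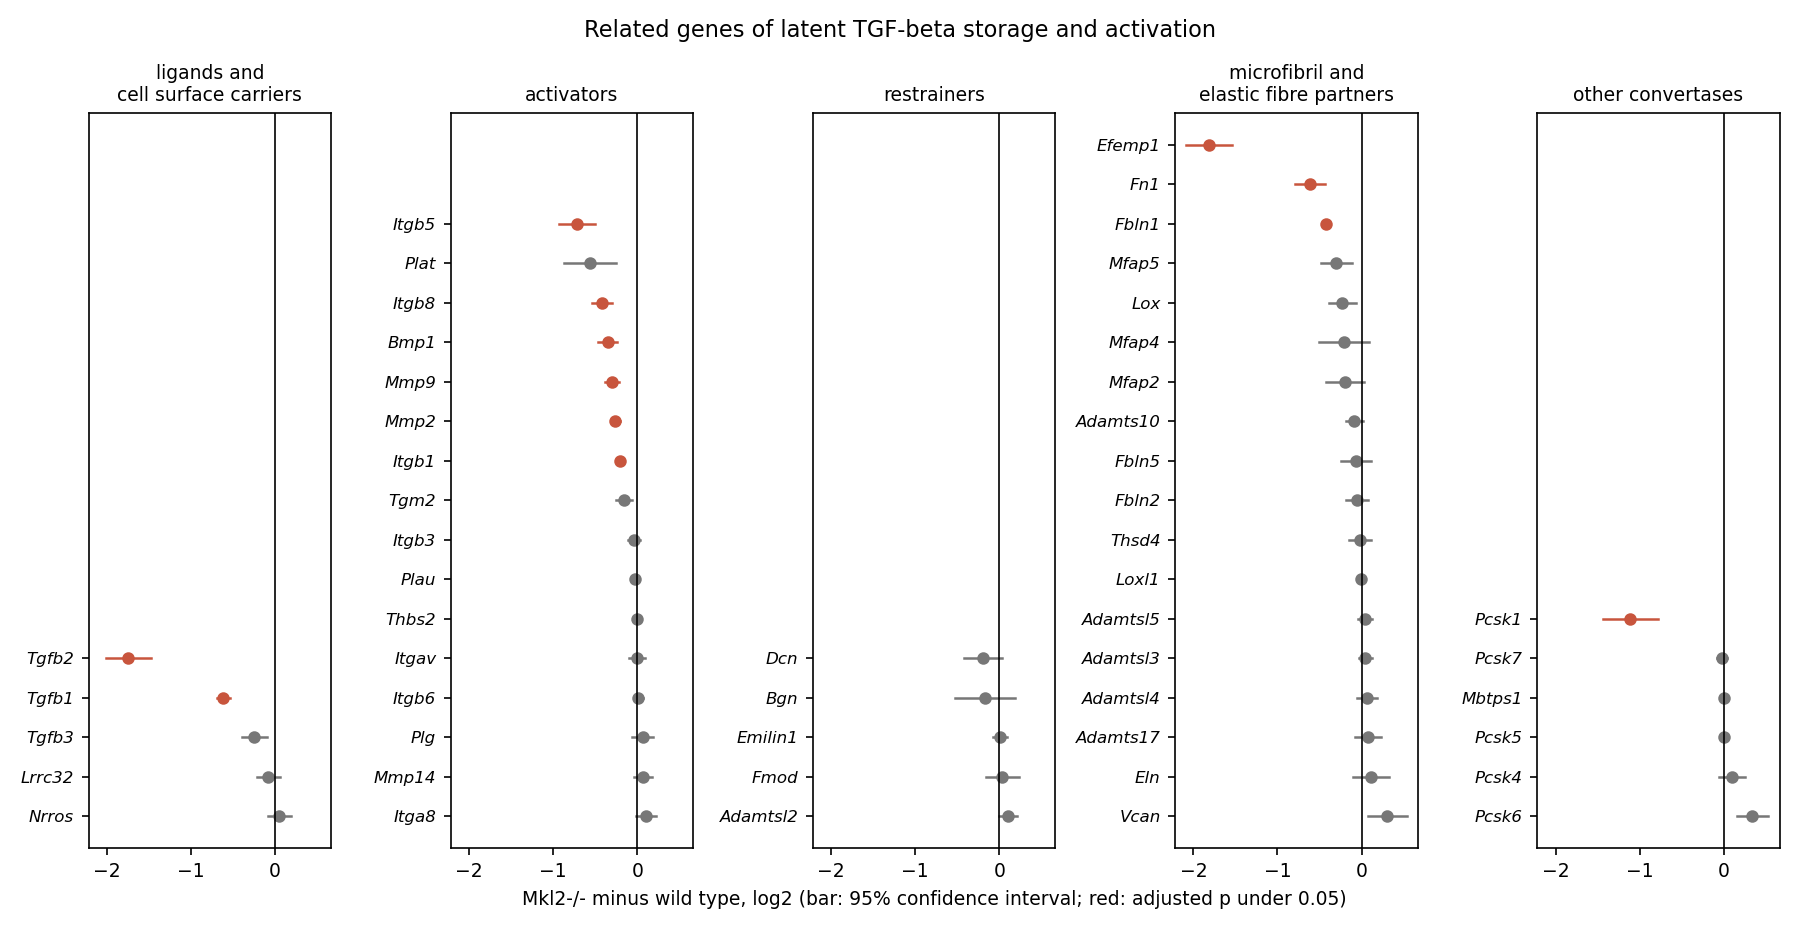
Mkl2-/- minus wild type on the log2 scale for 50 related genes in 5 lists, with 95% confidence intervals as bars and red for an adjusted p under 0.05 in limma. All 12 red points lie below 0, from Efemp1 (-1.81) to Itgb1 (-0.205), and no gene of the restrainer list is red.

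Of 18 microfibril and elastic fibre partners, 3 fell, none rose and 15 did not pass. These 3 are 16.7% of the list, beside 9.27% called among all genes and 12.9% among genes above background. Efemp1, which encodes fibulin-3, fell by 1.81 on the log2 scale (SE 0.10, limma adjusted p = 0.0079), and Fbln1, which encodes fibulin-1, read 9.68 on both wild-type arrays and 9.25, 9.26 and 9.28 on those of Mkl2-/- (-0.42 ± 0.01, SE; limma adjusted p = 0.0058). Fn1 encodes fibronectin, which LTBP1 needs for its deposition into the matrix, and read 12.57 on both wild-type arrays and 12.05, 11.97 and 11.86 in Mkl2-/- (-0.61 ± 0.06, SE; limma adjusted p = 0.0190); it lies on chromosome 1, like Tgfb2. The microfibril gene Mfap5 was above background in wild type only and did not pass (-0.30, limma adjusted p = 0.080). None of 5 restrainers of TGF-beta release passed in limma; 0 of them had an unadjusted p under 0.05, the nearest being Adamtsl2 (0.10) and Dcn (-0.195), and Bgn (-0.17) and Fmod (0.03) overlapped. Dcn is also a fibroblast marker.

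Of 6 convertases other than furin, 1 fell and none rose. That is 16.7% of the list, beside 9.27% called among all genes and 12.9% among genes above background, as all 6 are. Pcsk1, a convertase of neuroendocrine secretory granules, read 8.48 and 8.72 on the wild-type arrays against 7.35, 7.51 and 7.61 on the Mkl2-/- arrays (-1.11 ± 0.12, SE, n = 2 and 3; limma adjusted p = 0.0195). Pcsk6, which encodes PACE4, a convertase that shares substrates such as Nodal with furin, read 9.39 and 9.44 on the wild-type arrays against 9.79, 9.83 and 9.65 on the Mkl2-/- arrays. It was higher on all 3 Mkl2-/- arrays, by 0.34 ± 0.065 (SE, n = 2 and 3; 95% confidence interval 0.16 to 0.52), but did not pass (limma adjusted p = 0.062). Pcsk4 (0.10) and Pcsk7 (-0.02) did not pass either.

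**Figure D4:**
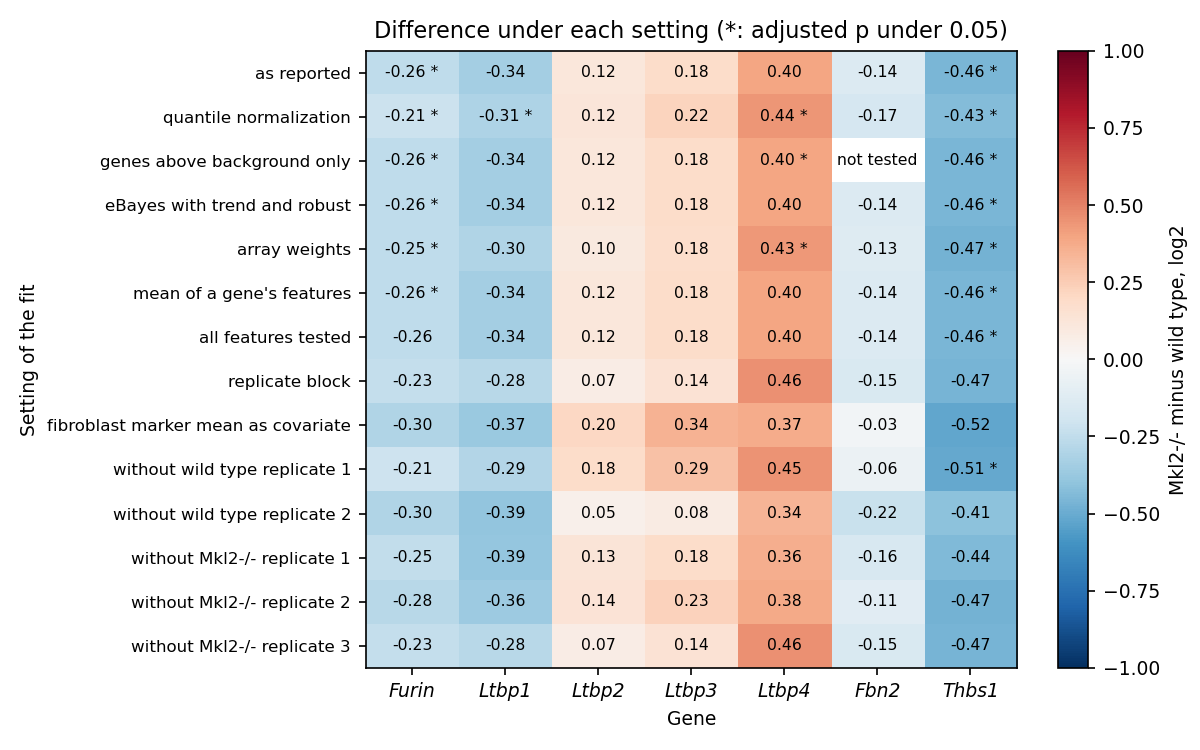
Mkl2-/- minus wild type on the log2 scale for the 7 genes (columns) in the reported fit and 13 alternative fits (rows), with an asterisk for an adjusted p under 0.05; colour runs from blue (lower) to red (higher). Each gene keeps its sign in every fit in which it was tested, and asterisks stand mainly for Thbs1 and Furin and are absent for Ltbp2, Ltbp3 and Fbn2.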

How the data were processed

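The deposited values are log2 intensities; per the submitters' processing notes, the authors used Affymetrix Expression Console 1.1 and RMA, which corrects background, normalizes quantiles and summarizes probes and so compresses differences of dim genes. The table holds 35556 features on 5 arrays, of which 21789 have 1 gene symbol in the platform annotation. The brightest feature per gene by its mean over all arrays was used (19938 genes). Background was the 95th percentile of olfactory receptor gene means, 7.30. The fit used limma 3.58.1 (lmFit and eBayes) under R 4.3.3 (3 residual and 0.885 prior degrees of freedom) with p-values adjusted by Benjamini-Hochberg over all genes; the script was tested on simulated data. No gene list was tested as a set. The members and lists were chosen with earlier results of these data known. Named were every member, Mkl2, its relatives and Srf, the 4 smallest p-values of each related list, the TGF-beta ligands, the 3 nearest profiles of each called member and the first 3 fibroblast markers; other names were chosen after their values were seen. Of 56 related symbols, 50 were measured. Alternatives changed the normalization, dim-gene filter, variance prior, array weights, features, replicate block, a fibroblast covariate and the arrays used. The sources used here do not give batches or scan dates. Figures were drawn with matplotlib 3.10.9.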

Additional observations from a re-analysis of the deposited data

How the results depend on the processing

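The sign of all 7 members was kept under all 13 alternatives in which they were tested; the filter on dim genes removed Fbn2. Quantile normalization gave 3234 calls over all genes and 4 among the members, and testing all features gave 1 member call (Thbs1). With the fibroblast marker mean as a covariate there were 0 calls in limma over all genes, the members and the related genes, while 3483 genes had an unadjusted p under 0.05. With the replicate number as a block, limma also made 0 calls over all genes, 0 among members and 0 among related genes, with 3827 genes at an unadjusted p under 0.05 and 1 residual degree of freedom. Whether the replicate numbers pair the cultures cannot be told here. Deviations of same-numbered arrays from their group means correlated at -0.26 and 0.18. With only 2 wild-type arrays, their deviations mirror each other, so these values cannot decide it. With single arrays left out, calls ranged from 0 to 963 over all genes, 0 to 1 among members and 0 to 8 among related genes; each such fit has 2 residual degrees of freedom. Without wild-type replicate 2 limma made 0 calls (4411 genes at an unadjusted p under 0.05), and without wild-type replicate 1 the 963 calls were 49.1% higher.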
